A study of Mus musculus with 20 samples.

Results

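Fibronectin and the matricellular proteins are secreted glycoproteins of the extracellular matrix, and 10 of their genes are described here: Fn1, Tnc, Tgfbi, Sparc, Spp1, Thbs1, Thbs2, Postn, Bgn and Dcn. They were listed by name as a family of matrix glycoproteins, and all 10 were found among the 39179 genes counted. RNA sequencing compared 4 groups of 5 libraries, each from an immortalised epithelial line of mouse kidney (strain C57BL/6J) grown in DMEM with serum and uridine. The groups are clone1 and clone19, both labelled as Fh1 deletion, Rec, labelled as re-expressing wild-type Fh1, and Fh1_fl_fl, labelled as Fh1 wild type. The name Fh1_fl_fl denotes floxed Fh1 alleles. Fh1 encodes fumarate hydratase, which turns fumarate into malate in the tricarboxylic acid cycle. Each deletion group carries the name of a single clone, so what belongs to a clone and what belongs to the deletion cannot be told apart within a group. The labels do not name the clone behind Rec, its vector or the deleted stretch of Fh1. Whether the 5 libraries of each group are separate cultures is not stated either, and the p-values therefore measure the spread between libraries, which may be technical.

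Fibronectin is secreted as a soluble dimer that cells stretch into fibrils through integrins, and collagens and growth factors are then laid down on those fibrils. Matricellular proteins such as tenascins, thrombospondins, osteopontin, SPARC and periostin do little to hold tissue together, and instead change how cells adhere, move and receive growth factors. Biglycan and decorin are small proteoglycans that coat collagen fibrils and bind transforming growth factor beta. In the kidney, osteopontin is made by tubule epithelium itself, whereas much of the other matrix is made by fibroblasts and pericytes, and most of these genes are known for rising in injured or fibrotic kidney.

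Gene counts per library summed to between 5988447 and 18972176. Levels are given as CPM, the count per library total on the customary scale, with totals scaled by the trimmed mean of M-values, and a library count of 0 allows up to 0.147 to 0.525 CPM on those scaled totals, depending on the library (3 counts, counting error only). All 7 kidney epithelial markers (Pax2, Pax8, Cdh16, Krt8, Krt18, Cdh1, Epcam) were detected in every group, with a summed level of 2049 to 2521 CPM in clone1, 1671 to 1917 in clone19, 3664 to 3999 in Rec and 3103 to 3634 in Fh1_fl_fl. The markers did not move together. In Rec, Krt8 (959 against 565 CPM in Fh1_fl_fl) and Krt18 (1159 against 684) were higher. Pax2 (96 against 272), Cdh16 (594 against 831) and Cdh1 (360 against 426) were lower there. Pax8 was higher in clone1 (371 CPM) and clone19 (233) than in Fh1_fl_fl (194), as was Krt18 in clone1 (802). Whole-gene Fh1 stood at 113 ± 5.94 CPM in clone1, 84.8 ± 7.32 in clone19, 71.3 ± 7.08 in Rec and 92.4 ± 6.16 in Fh1_fl_fl (SD, n = 5 each). Because a count over the whole gene does not show a deleted exon, it does not check the deletion labels. Rec, labelled as re-expressing Fh1, had the lowest mean, so re-expression was not visible in these counts. With the vector not named, whether its transcript would be counted on Fh1 is not known. The third clone19 library stood apart, with 8.202% of its gene counts on Gm42418, where reads of ribosomal RNA collect. Without it, the members called in the comparisons of clone19 with Fh1_fl_fl and of Rec with clone19 numbered 7 and 8, as with it, and in clone19 against clone1 they numbered 6 in place of 5.

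Set against Fh1_fl_fl, no direction was common to the family. Tnc and Tgfbi were lower in clone1, in clone19 and in Rec alike. Spp1 was higher in both clones and lower in Rec, while Thbs1 was lower in Rec without passing the test in either clone. Postn was lower in both clones and higher in Rec, Bgn and Dcn were higher in both clones, Sparc was higher in clone1 and Rec, and Fn1 was higher in clone19. Of the 10 genes, 9 passed the filter on low counts and were tested, and Thbs2 did not pass it.

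A gene is called changed at a Benjamini-Hochberg adjusted p under 0.05 in edgeR's quasi-likelihood test, adjusted over all 12671 genes tested. In clone1 against Fh1_fl_fl, 4 of the 9 were called higher and 3 lower, where 78.6% of all tested genes were called, 38% higher and 40.5% lower. In clone19 against Fh1_fl_fl, 4 were called higher and 3 lower, beside 72.9% of all genes, 36.8% higher and 36.1% lower. In Rec against Fh1_fl_fl, 2 were called higher and 4 lower, beside 70.8% of all genes, 33.4% higher and 37.4% lower. These 3 comparisons share the same Fh1_fl_fl libraries, and a call on its own says little of the family, since most genes were called.

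At the median, the differences were larger than over all tested genes. This describes the list and is not a test, since the members were chosen with earlier results of these data known. Tgfbi passed the filter on low counts only through Fh1_fl_fl and Dcn only through clone19, the groups where each is high. Over the 9 tested members the median absolute log2 fold change was 1.6 in clone1, 2.11 in clone19 and 0.73 in Rec against Fh1_fl_fl, beside 0.58, 0.48 and 0.44 over all tested genes. A stricter call asked for a change over 2-fold, tested with glmTreat against a log2 bound of 1. It was met by 6 of the 9 in clone1, 3 higher and 3 lower, where 21.7% of all genes met it, 10.9% in each direction. In clone19 it was met by 5, 2 higher and 3 lower, beside 15.5% of all genes, 8.2% higher and 7.28% lower. In Rec it was met by 4, all lower, beside 11.1% of all genes, 3.61% higher and 7.44% lower. The 3 higher calls in clone1 (Spp1, Bgn and Dcn) were lost with DESeq2 and with limma-voom, which kept 3 in all.

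**Figure D1:**
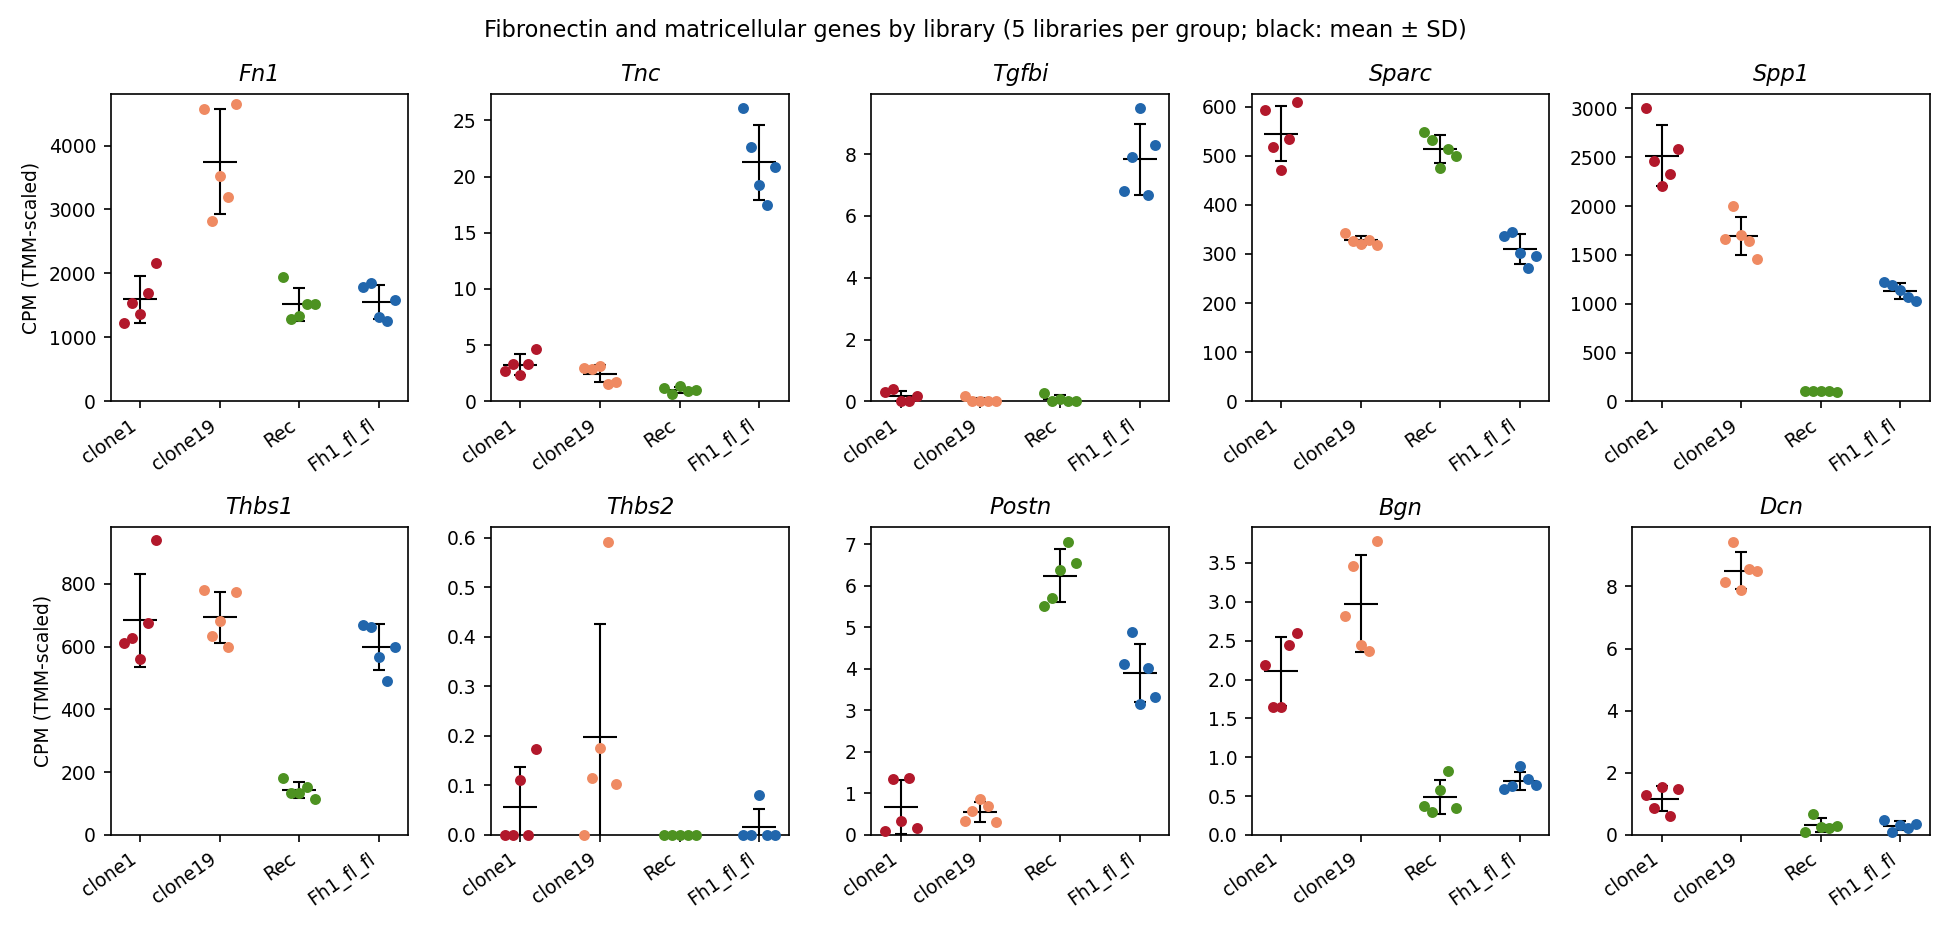
Level of each of the 10 genes in CPM on TMM-scaled library sizes (vertical axes, each from 0) in the 5 libraries of clone1, clone19, Rec and Fh1_fl_fl (horizontal axes), each point a library and the black bars the mean ± SD. Fn1 stands higher in clone19 than in the other groups, Tnc and Tgfbi are high in Fh1_fl_fl, Spp1 and Thbs1 are low in Rec, and Dcn is high in clone19.

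**Figure D2:**
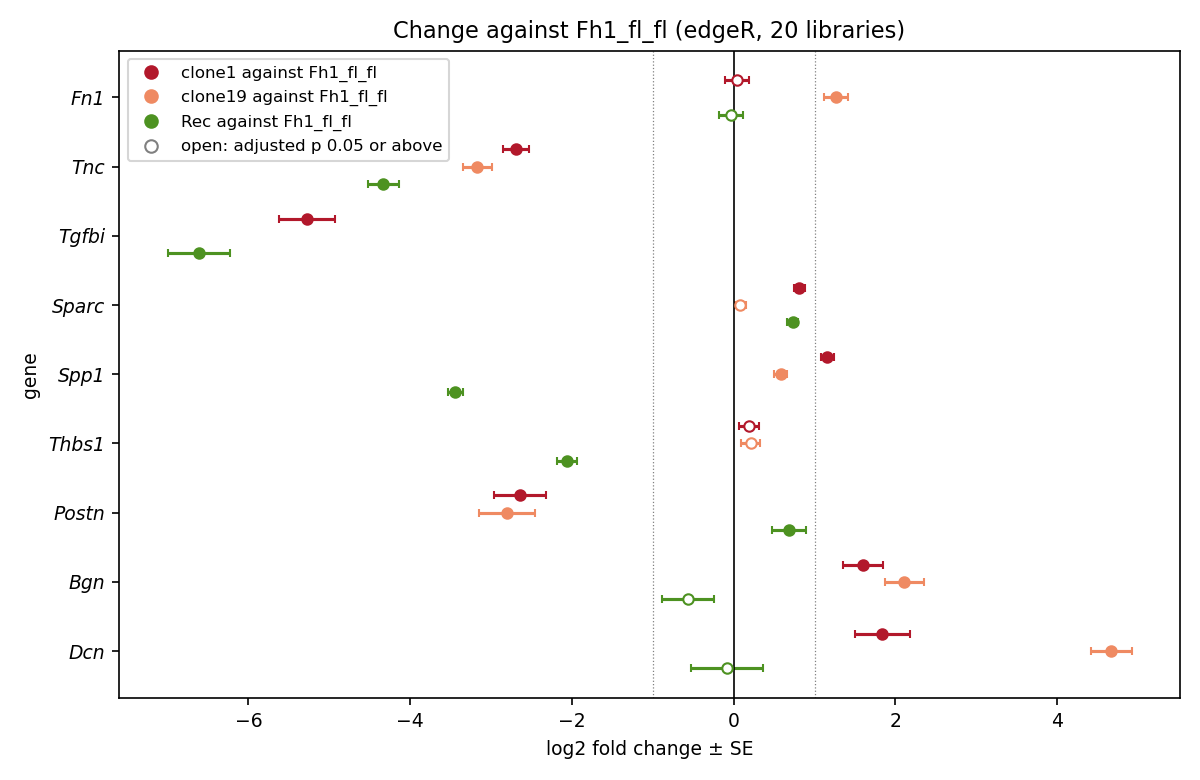
Log2 fold change ± SE (horizontal axis) of each tested gene (rows) in clone1, clone19 and Rec against Fh1_fl_fl, with filled points for an adjusted p under 0.05, open points otherwise and dotted lines at the 2-fold bounds. Tgfbi in clone19, with 1 count in the group, is not drawn. Tnc and Tgfbi lie left of 0 wherever drawn, Bgn and Dcn lie right of 0 in both clones, and Spp1 lies right of 0 in the clones and at -3.44 in Rec.

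Levels can be set side by side between genes only per length, and were divided by the bases of all annotated exons of a gene. Spp1 led in clone1, clone19 and Fh1_fl_fl, with 1527 ± 188 CPM per kb in clone1, 1027 ± 119 in clone19 and 686 ± 49.4 in Fh1_fl_fl. It ranked 10 in clone1, 22 in clone19 and 29 in Fh1_fl_fl among 12571 tested genes with a known length. In Rec it stood at 63.4 ± 2.94 CPM per kb and ranked 793, below Sparc (136 ± 7.47 CPM per kb) and Fn1 (130 ± 22.1 CPM per kb). Spp1 made up 79.5% of the summed CPM per kb of the 10 genes in clone1, 66.2% in clone19, 17.9% in Rec and 68.2% in Fh1_fl_fl. Spp1, Fn1, Sparc and Thbs1 stood at 23.7 CPM per kb or more in every group. The others stayed under 3 CPM per kb in every group, with the highest group mean at 2.74 ± 0.426 CPM per kb for Tnc in Fh1_fl_fl.

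**Figure D3:**
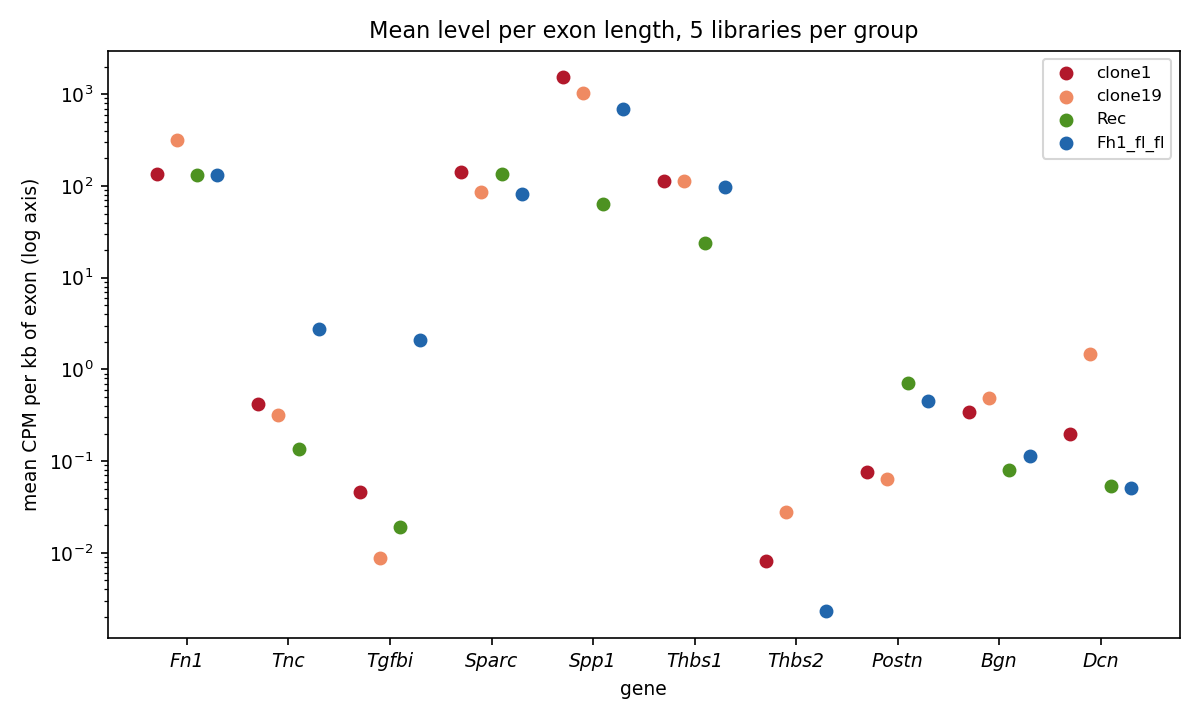
Mean level in CPM per kb of exon (vertical log axis) of the 10 genes (horizontal axis) in clone1, clone19, Rec and Fh1_fl_fl, each point the mean of 5 libraries; Thbs2 in Rec had no count and is not drawn. Spp1, Fn1, Sparc and Thbs1 lie at 23.7 CPM per kb or more in every group, and the other genes lie under 3.

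Fn1 (ENSMUSG00000026193, GRCm38 chr1:71585520-71653200, minus strand) encodes fibronectin. It had 1224, 1540, 1362, 1697 and 2168 CPM in the clone1 libraries and 4575, 2813, 3527, 3191 and 4642 CPM in the clone19 libraries. In Rec it had 1941, 1285, 1336, 1522 and 1521 CPM, against 1782, 1848, 1320, 1253 and 1586 CPM in Fh1_fl_fl. Every clone19 library lay above every other library of the study, and the ranges of clone1, Rec and Fh1_fl_fl overlapped. The ratio of the means of clone19 (3750 ± 824 CPM) and Fh1_fl_fl (1558 ± 267 CPM) was 2.41, a log2 fold change of 1.27 ± 0.15 (SE, edgeR adjusted p = 2.45e-08). This difference did not pass the 2-fold test (glmTreat adjusted p = 0.0696). The next means, clone1 (1598 ± 365), Fh1_fl_fl and Rec (1521 ± 258), did not differ beyond their spread, with log2 fold changes against Fh1_fl_fl of 0.04 in clone1 (edgeR adjusted p = 0.824) and -0.03 in Rec (0.848).

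The Fn1 transcript is long, at 8315 bases for the longest one annotated, and the libraries differed somewhat in the median level of genes with long transcripts. Whether those differences are technical or belong to the cells was not tested. Genes with a transcript of 8 kb and over had a median log2 fold change of 0.01 in clone19 against Fh1_fl_fl (728 genes), and of -0.16 in Rec against Fh1_fl_fl. In clone1, clone19 and Rec, the library with the lowest median of the long genes also had the lowest Fn1, while in Fh1_fl_fl the library with the lowest median (-0.08) had an Fn1 difference of -0.22 and another library (median -0.04) the lowest, -0.3. The lowest median of the long genes in clone19, -0.16 relative to the mean of Fh1_fl_fl, went with an Fn1 difference of 0.87 on the log2 scale. In clone1 the lowest median, -0.34, went with an Fn1 difference of -0.33, and in Rec -0.41 went with -0.26. With a trend on transcript length removed from each library, a setting chosen after the data were seen, Fn1 was higher in clone19 than in Fh1_fl_fl by 1.28 on the log2 scale (edgeR adjusted p = 1.56e-11). An antisense gene, Apol7d, overlaps 292 exon bases of Fn1, and with the strand setting not given in the sources used here their reads cannot be told apart there. Apol7d had 338 counts in all libraries, beside 149934 for Fn1 in clone19.

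**Figure D4:**
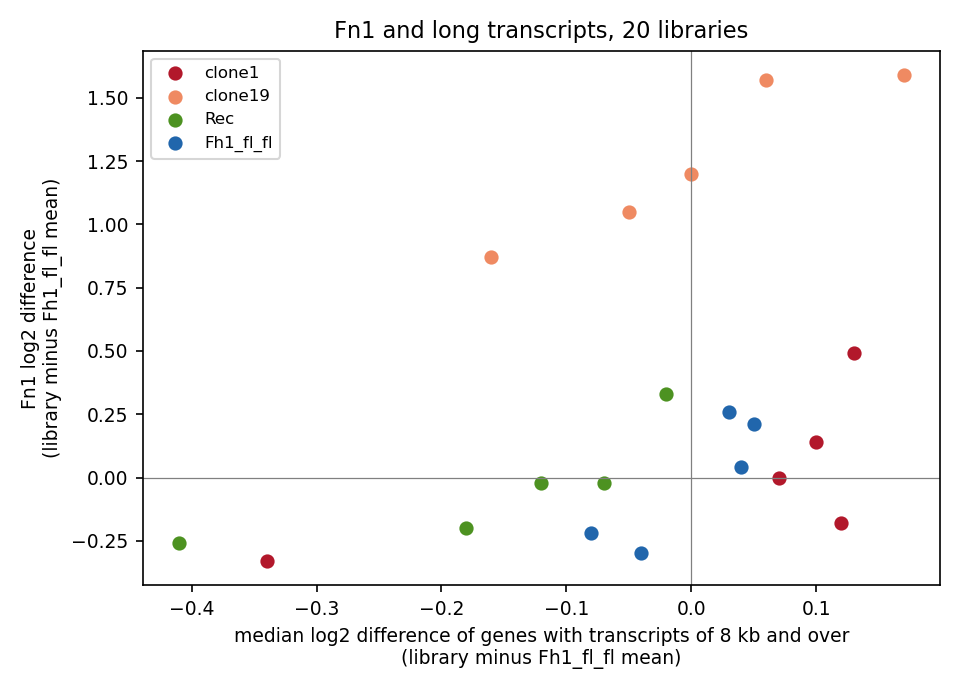
Fn1 (vertical axis) against the median of genes with transcripts of 8 kb and over (horizontal axis), both as log2 difference of a library from the mean of Fh1_fl_fl, for the 20 libraries of clone1, clone19, Rec and Fh1_fl_fl. The 5 clone19 libraries lie at 0.87 to 1.59 on the Fn1 axis, above all others, at long-gene medians between -0.16 and 0.17.

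Tnc (ENSMUSG00000028364, GRCm38 chr4:63959785-64047015, minus strand) encodes tenascin-C, a large glycoprotein that loosens the hold of cells on fibronectin and is made mainly in embryos, wounds and tumours. It had 2.69, 3.29, 2.31, 3.36 and 4.69 CPM in clone1 and 2.99, 2.88, 3.15, 1.57 and 1.74 CPM in clone19. The Rec libraries had 1.22, 0.688, 1.39, 0.942 and 0.984 CPM, against 26.1, 22.6, 19.3, 17.5 and 20.8 CPM in Fh1_fl_fl. Every library of the other groups lay far below the lowest Fh1_fl_fl library, and every Rec library lay below every library of either clone. Set against Fh1_fl_fl, the log2 fold change was -2.69 ± 0.163 in clone1, -3.17 ± 0.18 in clone19 and -4.33 ± 0.192 in Rec (SE, edgeR adjusted p = 2.77e-14, 1.17e-14 and 7.75e-17). Tnc was lower in Rec than in clone1 by -1.64 (edgeR adjusted p = 1.64e-06) and than in clone19 by -1.15 (0.00066), while clone19 against clone1 missed the threshold (-0.49, 0.0698). That last difference passed in 5 alternatives, with DESeq2 (-0.5, adjusted p = 0.0467) and in edgeR without clone1 replicate 1 (adjusted p = 0.0381), without clone1 replicate 3 (0.0327), without clone19 replicate 1 (0.0386) or without clone19 replicate 3 (0.0371). The gene 8030451A03Rik, annotated on the plus strand, overlaps 176 exon bases of Tnc, where their reads cannot be told apart if counting ignored strand. It had 19 counts in all libraries, beside 62 for Tnc in Rec.

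Tgfbi (ENSMUSG00000035493, GRCm38 chr13:56609523-56639562, plus strand) encodes a secreted protein that is induced by transforming growth factor beta and binds collagens and integrins. It had 0.299, 0.388, 0, 0 and 0.174 CPM in clone1, and 0.166 CPM in the first clone19 library with 0 in the other 4. Rec held 0.281 CPM in the first library, 0.0818 in the third and 0 in the other 3, against 6.81, 7.89, 9.49, 6.66 and 8.29 CPM in Fh1_fl_fl. No library outside Fh1_fl_fl held more than 4 counts of it, and the groups did not overlap with Fh1_fl_fl. The sums were 9 counts in clone1, 1 in clone19, 4 in Rec and 540 in Fh1_fl_fl. Relative to Fh1_fl_fl, Tgfbi was lower by a log2 fold change of -5.28 ± 0.347 in clone1 and -6.61 ± 0.388 in Rec (SE, edgeR adjusted p = 1.45e-13 and 2.94e-14). For clone19 the ratio of counts was 310-fold lower than in Fh1_fl_fl, with an exact 95% counting interval of 55.5 to 12283. The first Rec library held 3 of the 4 counts of its group. With it, the ratio of counts in Rec was 113-fold lower than in Fh1_fl_fl (interval 43.9 to 417), and without it 370-fold lower (66.2 to 14659). Among clone1, Rec and clone19 the order turned on single libraries. Rec against clone1 missed the threshold (edgeR adjusted p = 0.163), and passed it without the first Rec library (0.0234). The count ratio of clone19 was 7.64-fold lower than in clone1, with an exact 95% counting interval of 1.06 to 335. That difference missed the threshold (edgeR adjusted p = 0.0626), and passed it with DESeq2 (0.0302) and without clone1 replicate 3 (0.0317), clone1 replicate 4 (0.0407) or clone19 replicate 1 (0.0232).

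Tnc and Tgfbi were the pair of members lower than Fh1_fl_fl in clone1, clone19 and Rec alike, so the 250 bases before the RefSeq start of Tnc are shown with those before the annotated start of Tgfbi (RefSeq, GRCm38.p6; Tnc chr4:64047016-64047265, minus strand; Tgfbi chr13:56609336-56609522, plus strand). Capitals mark matches to a GC box (GGGCGG) and, in Tnc, a TATA box (TATAAA). The GC box match begins 167 bases before the start in Tnc and 124 before the RefSeq start in Tgfbi, and the TATA box match 126 before the start in Tnc. The Tgfbi window is cut at 187 bases because GENCODE places the gene's start 63 bases before that of RefSeq.
Tnc: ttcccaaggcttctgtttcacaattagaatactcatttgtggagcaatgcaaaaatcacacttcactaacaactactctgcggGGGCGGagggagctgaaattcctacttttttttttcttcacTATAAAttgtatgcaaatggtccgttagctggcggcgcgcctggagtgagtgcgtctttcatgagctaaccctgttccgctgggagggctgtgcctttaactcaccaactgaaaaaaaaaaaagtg
Tgfbi: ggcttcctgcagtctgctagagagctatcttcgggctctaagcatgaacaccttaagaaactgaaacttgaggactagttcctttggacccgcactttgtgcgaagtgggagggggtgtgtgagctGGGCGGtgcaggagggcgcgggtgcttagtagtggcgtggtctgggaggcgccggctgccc

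Both strands of the 250 bases before each RefSeq start, for Tgfbi with the bases left out above, were searched for those letters and, by their own letters, for the CCAAT box, the AP-1 element (TGANTCA), the E-box that ZEB and SNAI factors bind (CAGGTG) and the core of the hypoxia response element (ACGTG). Among 32851 RefSeq mouse promoters of that length, 12.4% held the letters of the TATA box, 33.8% those of the CCAAT box, 32.7% the GC box, 6.75% the AP-1 element, 17.2% the E-box and 16.6% the hypoxia core. Any match is a match of letters and says nothing of a factor. RefSeq windows were at hand for 7 of the 10 genes.

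Spp1 (ENSMUSG00000029304, GRCm38 chr5:104435118-104441050, plus strand) encodes osteopontin, a phosphorylated protein that binds integrins and CD44 and keeps calcium salts from crystallising in urine. It had 3007, 2459, 2201, 2331 and 2589 CPM in clone1 and 1659, 1999, 1706, 1643 and 1456 CPM in clone19. The Rec libraries had 106, 109, 105, 106 and 96.2 CPM, against 1220, 1193, 1143, 1064 and 1030 CPM in Fh1_fl_fl. The 4 groups did not overlap, in the order clone1, clone19, Fh1_fl_fl and Rec. The ratio of means to Fh1_fl_fl (1130 ± 81.4 CPM) was 2.23 in clone1 (2517 ± 309) and 1.5 in clone19 (1693 ± 196), while Rec (105 ± 4.84 CPM) was 10.8-fold lower. The log2 fold changes were 1.16 ± 0.08, 0.58 ± 0.0793 and -3.44 ± 0.0879 (SE, edgeR adjusted p = 4.34e-13, 2.8e-07 and 9.03e-22). Against the clones, Rec was 24.1-fold lower than clone1 and 16.2-fold lower than clone19.

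The Spp1 promoter is shown because the Rec cells, labelled as carrying Fh1 again, had the lowest level of this transcript and not the level of Fh1_fl_fl (RefSeq, GRCm38.p6, chr5:104434861-104435110, plus strand). Capitals mark a TATA box match beginning 211 bases before the start, an E-box match at 98 and a CCAAT box match on the reverse strand at 46.
Spp1: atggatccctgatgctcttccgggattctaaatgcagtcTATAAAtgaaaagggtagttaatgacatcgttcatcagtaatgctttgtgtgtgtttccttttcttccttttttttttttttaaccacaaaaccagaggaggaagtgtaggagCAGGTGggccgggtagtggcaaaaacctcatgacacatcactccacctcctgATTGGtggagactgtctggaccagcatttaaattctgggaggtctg
Of the related genes that lie beside Spp1 and encode bone and tooth proteins (Ibsp, Mepe, Dmp1 and Dspp), none was tested, and they had 3 counts in all: 2 for Ibsp and 1 for Dmp1.

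Thbs1 (ENSMUSG00000040152, GRCm38 chr2:118111876-118127133, plus strand) encodes thrombospondin-1, which frees transforming growth factor beta from its latent complex and curbs the growth of vessels through CD36 and CD47. It had 613, 629, 562, 677 and 940 CPM in clone1 and 780, 633, 681, 600 and 775 CPM in clone19. In Rec it had 183, 134, 133, 154 and 116 CPM, against 669, 663, 566, 491 and 600 CPM in Fh1_fl_fl. Every Rec library lay below every other library, and the ranges of the other groups overlapped. Rec (144 ± 25.6 CPM) was 4.15-fold lower than Fh1_fl_fl (598 ± 73.6 CPM), a log2 fold change of -2.06 ± 0.126 (SE, edgeR adjusted p = 7.29e-14). The means of clone19 (694 ± 81.6) and clone1 (684 ± 149) stood next to that of Fh1_fl_fl and did not differ from it beyond their spread, at 0.21 (edgeR adjusted p = 0.11) and 0.19 (0.139). The call in clone19 was gained at 0.22 when only the libraries of clone19 and Fh1_fl_fl were fitted (edgeR adjusted p = 0.0348) and at 0.23 with length and GC trends removed (0.0415), and that in clone1 at 0.28 without the first Fh1_fl_fl library (0.0484).

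Thbs2 (ENSMUSG00000023885, GRCm38 chr17:14665500-14694235, minus strand) encodes thrombospondin-2, a close relative that does not activate transforming growth factor beta. It summed to 3 counts in clone1, 9 in clone19, 0 in Rec and 1 in Fh1_fl_fl, and so was hardly detected. The 0 in Rec allows up to 0.051 CPM over the group. The fourth clone19 library held 6 of the 9 counts of its group (0.590 CPM), 3 clone19 libraries held 1 count each and the first held 0. The single count in Fh1_fl_fl lay in the third library (0.0811 CPM), and the gene was in no test across genes.

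Sparc (ENSMUSG00000018593, GRCm38 chr11:55394500-55423183, minus strand) encodes SPARC or osteonectin, a collagen-binding protein that makes cells round up and accompanies collagen during secretion. It had 592, 517, 471, 535 and 610 CPM in clone1 and 344, 327, 321, 328 and 318 CPM in clone19. Rec libraries held 549, 532, 476, 513 and 500 CPM, against 336, 345, 303, 272 and 295 CPM in Fh1_fl_fl. The libraries of clone1 and Rec overlapped with each other and lay above those of clone19 and Fh1_fl_fl, which overlapped too. The log2 fold change relative to Fh1_fl_fl (310 ± 30 CPM) was 0.81 ± 0.0689 in clone1 (545 ± 56.5) and 0.73 ± 0.0688 in Rec (514 ± 28.3), with edgeR adjusted p = 2.96e-11 and 4.35e-10. In clone19 (328 ± 9.94 CPM) it was 0.08 (edgeR adjusted p = 0.309), and Rec and clone1 differed by -0.09 (0.258), a difference that passed with the length trend removed (-0.15, 0.0379).

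Postn (ENSMUSG00000027750, GRCm38 chr3:54361109-54391037, plus strand) encodes periostin, which helps cross-link collagen and appears in injured kidney tubules. It had 0.0996, 1.36, 0.330, 1.37 and 0.174 CPM in clone1 and 0.332, 0.576, 0.875, 0.689 and 0.307 CPM in clone19. In Rec it had 5.52, 5.70, 6.38, 7.06 and 6.54 CPM, against 4.12, 4.88, 3.16, 4.01 and 3.31 CPM in Fh1_fl_fl. Every clone library lay below every Fh1_fl_fl library and every Rec library above them, while the clones overlapped. Set against Fh1_fl_fl, the log2 fold change was -2.64 ± 0.325 in clone1, -2.8 ± 0.35 in clone19 and 0.68 ± 0.209 in Rec (SE, edgeR adjusted p = 4e-08, 6.51e-08 and 0.00504). Postn alone among the 9 tested members was lower in both clones than in Fh1_fl_fl and higher in Rec than in both clones. It was 9.36-fold higher in Rec than in clone1 and 11.2-fold higher than in clone19. The levels of the clones rest on 29 counts in clone1 and 22 in clone19.

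The Postn promoter is shown because Postn was low in both clones and not in Rec (RefSeq, GRCm38.p6, chr3:54360857-54361106, plus strand), with capitals for its single match, a TATA box beginning 26 bases before the start.
Postn: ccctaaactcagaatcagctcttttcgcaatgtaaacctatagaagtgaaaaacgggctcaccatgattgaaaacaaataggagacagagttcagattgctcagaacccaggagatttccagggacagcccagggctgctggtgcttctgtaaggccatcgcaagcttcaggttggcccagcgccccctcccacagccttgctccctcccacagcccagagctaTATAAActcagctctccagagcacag

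Bgn (ENSMUSG00000031375, GRCm38 chrX:73483602-73495933, plus strand) encodes biglycan. It had 2.19, 1.65, 1.65, 2.44 and 2.60 CPM in clone1 and 2.82, 3.46, 2.45, 2.36 and 3.79 CPM in clone19. The Rec libraries held 0.374, 0.295, 0.573, 0.824 and 0.347 CPM, against 0.588, 0.623, 0.892, 0.717 and 0.648 CPM in Fh1_fl_fl. Every library of either clone lay above every library of Rec and Fh1_fl_fl, and Rec and Fh1_fl_fl overlapped. Relative to Fh1_fl_fl the log2 fold change was 1.6 ± 0.247 in clone1, 2.11 ± 0.238 in clone19 and -0.56 ± 0.322 in Rec (SE, edgeR adjusted p = 1.63e-06, 1.04e-08 and 0.121). The clones overlapped, and their difference of 0.51 (edgeR adjusted p = 0.0342) was lost in 10 alternatives, among them DESeq2 (0.0781).

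Dcn (ENSMUSG00000019929, GRCm38 chr10:97479609-97518143, plus strand) encodes decorin. It had 1.30, 0.872, 1.54, 0.611 and 1.48 CPM in clone1 and 8.13, 9.45, 7.88, 8.56 and 8.50 CPM in clone19. Rec libraries stood at 0.0935, 0.688, 0.245, 0.235 and 0.290 CPM, against 0.490, 0.104, 0.324, 0.215 and 0.360 CPM in Fh1_fl_fl. The clone19 libraries stood above all others, clone1 came next, and its lowest library overlapped with the highest of Rec. Against Fh1_fl_fl (0.299 ± 0.147 CPM), clone19 (8.50 ± 0.597 CPM) was 28.5-fold higher, a log2 fold change of 4.67 ± 0.25 (SE, edgeR adjusted p = 3.35e-15). In clone1 (1.16 ± 0.402 CPM) the log2 fold change was 1.84 ± 0.345 (edgeR adjusted p = 2.7e-05), and in Rec (0.310 ± 0.224 CPM) it was -0.08 ± 0.442 (0.878). The sum of 23 counts in Fh1_fl_fl and 18 in Rec limits the precision of these ratios. Dcn passed the filter on low counts only through the clone19 libraries. When only the libraries of clone1 and Fh1_fl_fl were fitted, it was not tested. Its calls in clone1 against Fh1_fl_fl and in Rec against clone1 therefore depend on having clone19 in the fit.

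Summed fibroblast, pericyte and endothelial markers lay higher in every library of both clones than in any Fh1_fl_fl library, as Bgn and Dcn did, whereas the macrophage and leukocyte sum lay lower. In Rec the pericyte sum lay below and the endothelial sum above that of Fh1_fl_fl. The 8 fibroblast markers summed to 4.12 to 5.42 CPM in clone1, 3.11 to 7.63 in clone19, 1.04 to 1.5 in Rec and 0.932 to 1.56 in Fh1_fl_fl. In each group 4 or 5 of the 8 were detected, Lum and Thy1 were at 0 in every library, and only Col1a1 and Pdgfra passed the filter on low counts. Col1a1 stood at 3.45 ± 0.447 CPM in clone1 and 1.41 ± 0.442 in clone19, against 0.6 ± 0.18 in Fh1_fl_fl. Pdgfra stood at 0.956 ± 0.735 and 3.57 ± 1.57 CPM, against 0.465 ± 0.225. Col1a2 went the other way, with 1 count in clone1 and 2 in clone19, against 11 in Fh1_fl_fl. The 7 pericyte and smooth muscle markers summed to 10.1 to 14 CPM in clone1, 8.06 to 18 in clone19, 2.24 to 3.83 in Rec and 6.73 to 7.64 in Fh1_fl_fl, with 5 or 6 of the 7 detected and Pdgfrb at 0 in every library. Only Des and Notch3 passed the filter on low counts. Des stood at 6.31 ± 0.485 CPM in clone1, 2.22 ± 1.11 in clone19, 0.122 ± 0.0924 in Rec and 0.0287 ± 0.0641 in Fh1_fl_fl. Notch3 was lower in clone1 (5.51 ± 1.12 CPM) and Rec (2.59 ± 0.66) than in Fh1_fl_fl (7.26 ± 0.335), and higher in clone19 (9.78 ± 2.77). The edgeR adjusted p of Notch3 were 0.0321, 8.62e-08 and 0.0195. The 7 endothelial markers summed to 2.6 to 4.75 CPM in clone1, 7.83 to 10.7 in clone19, 1.12 to 2.06 in Rec and 0.358 to 0.735 in Fh1_fl_fl, with 5 to 7 of the 7 detected. Cdh5 alone made up 7.92 ± 0.918 CPM of this sum in clone19, against 0.121 ± 0.0754 CPM in Fh1_fl_fl, and Tek and Emcn were at 0 in clone19. The 8 macrophage and leukocyte markers summed to 21.7 to 23.7 CPM in clone1, 24 to 31.4 in clone19, 22 to 27.5 in Rec and 46.2 to 52.5 in Fh1_fl_fl, with 4 to 7 of the 8 detected and Tyrobp at 0 in every library. Its main genes went opposite ways in clone19: Csf1r was at 7.54 ± 2.17 CPM in clone19, against 43.5 ± 2.63 CPM in Fh1_fl_fl, and Cd68 at 18.1 ± 1.27 CPM in clone19, against 3.97 ± 0.468 CPM in Fh1_fl_fl. Their part in these differences was not tested, and in bulk RNA fewer cells that make a transcript and less of it per cell cannot be told apart.

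The comparison of Rec with the clones asks which members differed in cells labelled as re-expressing Fh1. In Rec against clone1, 1 of the 9 tested members was called higher (Postn) and 5 lower (Tnc, Spp1, Thbs1, Bgn and Dcn), where 77.9% of all genes were called, 39.7% higher and 38.1% lower. All 6 passed the 2-fold test, met by 22% of all genes, 9.12% higher and 12.9% lower. Dcn was tested here only because it passed the filter on low counts through clone19. In Rec against clone19, 2 were called higher (Sparc and Postn) and 6 lower (Fn1, Tnc, Spp1, Thbs1, Bgn and Dcn), beside 73.8% of all genes, 35.8% higher and 38% lower. Of these, 6 passed the 2-fold test (Postn higher and Fn1, Spp1, Thbs1, Bgn and Dcn lower), beside 15.5% of all genes, 5.11% higher and 10.4% lower. The log2 fold changes of Rec against clone1 and clone19 were -2.16 and -2.68 for Bgn, -1.92 and -4.75 for Dcn, and -2.25 and -2.27 for Thbs1 (edgeR adjusted p at most 3.22e-05). Fn1 was lower in Rec than in clone19 by -1.3 (edgeR adjusted p = 1.44e-08) and did not differ from clone1 beyond the spread (-0.07, 0.666). Bgn and Dcn, higher in both clones than in Fh1_fl_fl, were lower in Rec than in both clones, and Rec and Fh1_fl_fl did not differ beyond their spread. Spp1, also higher in both clones, was lower in Rec than in Fh1_fl_fl as well. Both comparisons share the Rec libraries.

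**Figure D5:**
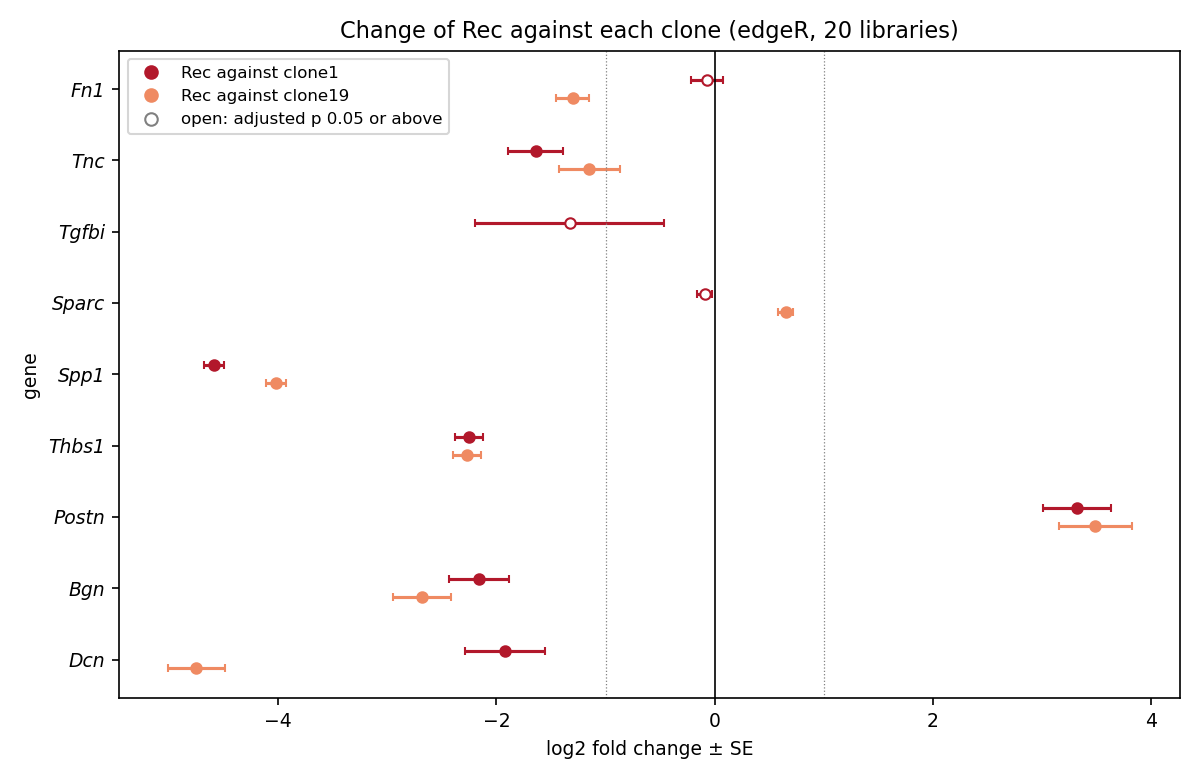
Log2 fold change ± SE (horizontal axis) of each tested gene (rows) in Rec against clone1 and against clone19, with filled points for an adjusted p under 0.05, open points otherwise and dotted lines at the 2-fold bounds. Tgfbi against clone19, with 1 count there, is not drawn. Postn lies right of the upper bound against both clones, and Tnc, Spp1, Thbs1, Bgn and Dcn lie left of the lower bound against both. Tnc against clone19 did not pass the 2-fold test.

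The clones differed from each other in 5 of the 9 tested members, 3 higher in clone19 (Fn1, Bgn and Dcn) and 2 lower (Sparc and Spp1), where 65.1% of all genes were called, 33.5% higher and 31.6% lower. Dcn differed most, 7.34-fold higher in clone19 than in clone1 (log2 fold change 2.83 ± 0.216 SE, edgeR adjusted p = 9.27e-12), and it alone passed the 2-fold test, met by 9.58% of all genes, 4.79% in each direction. Fn1 was higher by 1.23 (edgeR adjusted p = 6.11e-08), Sparc was lower by -0.73 (5.77e-10) and Spp1 by -0.57 (5.19e-07). Thbs1 and Postn did not differ beyond their spread, at 0.02 (edgeR adjusted p = 0.896) and -0.17 (0.789).

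The pattern over the 20 libraries was also compared between genes, as the root mean square difference of log2 CPM after centring each gene. Among the 9 tested members the closest pairs were Thbs1 and Bgn (0.724), Fn1 and Bgn (0.751) and Fn1 and Sparc (0.827), and Tgfbi and Dcn were farthest apart (3.47). The tested genes most like Fn1 were Med13l (0.199), Huwe1 (0.201) and Aplp2 (0.203), and those most like Sparc were Lrrc59 (0.109), Hsd17b7 (0.117) and Sqle (0.12). Sqle and Hsd17b7 are enzymes of cholesterol synthesis. Spp1 was closest to Timp3 (0.275), an inhibitor of matrix metalloproteinases, with 939 CPM in clone1, 566 in clone19, 36.4 in Rec and 285 in Fh1_fl_fl. Bgn was closest to Thbd (0.3), which encodes thrombomodulin, and Thbs1 to 4930402H24Rik (0.262) and the bicarbonate transporter gene Slc4a4 (0.268). For the tested members under 3 CPM per kb other than Bgn, the nearest genes were Dhrs3 at 0.424 for Tnc, Stk26 at 0.519 for Tgfbi, Pabpc4l at 0.494 for Dcn and 5730507C01Rik at 0.584 for Postn.

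Other matricellular genes formed a list of 28, of which 16 were tested. In clone1, 8 were called higher and 7 lower than in Fh1_fl_fl, in clone19 7 and 5, and in Rec 4 and 8. Of all tested genes 78.6%, 72.9% and 70.8% were called in those comparisons, so these counts, and those of the lists that follow, lie in a setting where most genes were called. Ccn5, a relative of connective tissue growth factor, was higher in clone1 (13.5 ± 1.56 CPM) than in Fh1_fl_fl (0.321 ± 0.274 CPM), by 5.17 on the log2 scale (edgeR adjusted p = 3.37e-16). Ccn5 passed the filter on low counts only through clone1, the group where it is high. Like Fstl1 and Smoc1 below, Ccn5 was named by a rule that takes the largest changes in these same data. Tnxb encodes another tenascin and was singled out outside that rule, after its values were seen. It was higher in clone1 (6.91 ± 0.569 CPM) and in clone19 (1.14 ± 0.306 CPM) than in Fh1_fl_fl (0.357 ± 0.216 CPM), with edgeR adjusted p = 3.67e-15 and 6.72e-05. Fstl1, a SPARC relative, was higher in clone19 (47.5 ± 3.54 CPM) than in Fh1_fl_fl (2.02 ± 0.376 CPM), by 4.54 (edgeR adjusted p = 4.42e-21), and lower in clone1 (0.784 ± 0.157 CPM, 1.24e-05). Smoc1, another SPARC relative, had 0 counts in clone1 and 11 in clone19, beside 187 in Fh1_fl_fl, the only group through which it passed the filter.

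Of 15 further small leucine-rich proteoglycan genes, relatives of Bgn and Dcn, only Tsku was tested. It was higher in clone1 (75.2 ± 10.2 CPM), in clone19 (25.4 ± 2.65) and in Rec (7.96 ± 0.304) than in Fh1_fl_fl (5.71 ± 0.846), by 3.7, 2.13 and 0.47 on the log2 scale (edgeR adjusted p = 2.58e-21, 3.22e-15 and 0.00171). Lum and Kera, which lie beside Dcn, had 0 counts in all 20 libraries, and Epyc had 3. Of 24 genes of elastic fibres and fibulins 14 were tested, with 7 higher and 3 lower in clone1, 8 and 3 in clone19, and 7 and 4 in Rec, beside the shares of all genes given above. Fbln1, whose fibulin binds fibronectin, was at 25 ± 4.86 CPM in clone1, 2.72 ± 0.801 in clone19, 0.0796 ± 0.123 in Rec and 0.0691 ± 0.0521 in Fh1_fl_fl, higher in both clones (edgeR adjusted p = 8.08e-19 and 4.15e-10). Ltbp2, a latent TGF-beta binding protein of microfibrils, was lower in clone1 (0.243 ± 0.217 CPM) than in Fh1_fl_fl (3.18 ± 0.802 CPM, edgeR adjusted p = 3.44e-10). In clone19 it stood at 2.3 ± 0.606 CPM (log2 fold change -0.51, edgeR adjusted p = 0.0514), and in Rec it was higher than in Fh1_fl_fl, at 7.14 ± 0.871 CPM (1.12, 4.9e-06). Loxl3, a lysyl oxidase that cross-links collagen and elastin, was higher in clone1 (11.3 ± 1.91 CPM) and clone19 (4.88 ± 0.483 CPM) than in Fh1_fl_fl (0.952 ± 0.294 CPM, edgeR adjusted p = 4.34e-15 and 8.05e-10).

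Receptors that bind the members formed a list of 20, of which 16 were tested. Of these, 9 were higher and 3 lower in clone1 than in Fh1_fl_fl, 8 and 5 in clone19, and 3 and 11 in Rec, where 78.6%, 72.9% and 70.8% of all genes were called. Itgb3, which pairs with the alpha v integrin to bind osteopontin and fibronectin, was at 80.3 ± 8.56 CPM in clone1, 11.8 ± 1.63 in clone19, 0.696 ± 0.422 in Rec and 7.2 ± 1.36 in Fh1_fl_fl. It was higher than in Fh1_fl_fl in clone1 and clone19 and lower in Rec (log2 fold changes 3.47, 0.7 and -3.43, edgeR adjusted p = 1.15e-19, 6.81e-05 and 2.39e-13), the order of groups seen for Spp1. Cd36, a receptor of thrombospondin-1, had 73 counts in clone1, 17 in clone19, 4 in Rec and 3 in Fh1_fl_fl. Cd36 passed the filter on low counts only through clone1. Itgb8, an integrin that activates transforming growth factor beta, was lower in clone1, clone19 and Rec, at 0.429 ± 0.209, 0.79 ± 0.488 and 0.39 ± 0.228 CPM, against 2.47 ± 0.846 CPM in Fh1_fl_fl (edgeR adjusted p = 1.5e-06, 0.000262 and 6.95e-07). Itgb8 passed that filter only through Fh1_fl_fl, the group where it is high.

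All 11 listed ligands, receptors and SMADs of the transforming growth factor beta pathway were tested. In clone1 7 were higher and 4 lower than in Fh1_fl_fl, in clone19 6 and 3, and in Rec 2 and 6, again beside 78.6%, 72.9% and 70.8% of all genes called. Tgfbr3, the co-receptor betaglycan, was at 61.5 ± 8.97 CPM in clone1, 17.8 ± 2.83 in clone19, 1.4 ± 0.452 in Rec and 12.6 ± 1.67 in Fh1_fl_fl. Its log2 fold changes against Fh1_fl_fl were 2.29, 0.49 and -3.11 (edgeR adjusted p = 8.76e-16, 0.00143 and 3.65e-14). The ligand gene Tgfb1 was higher in clone1 and clone19 (39.9 ± 3.37 and 32 ± 5.21 CPM) than in Fh1_fl_fl (16 ± 2.01 CPM), with edgeR adjusted p = 2.29e-11 and 1.61e-08. Tgfb3 was lower in clone1 and clone19 (4.88 ± 0.883 and 5.58 ± 1.18 CPM) than in Fh1_fl_fl (15 ± 1.81 CPM), with edgeR adjusted p = 1.1e-10 and 1.47e-09. Of 19 genes that build the sugar chains of proteoglycans 14 were tested, with 6 higher and 5 lower in clone1, 7 and 2 in clone19, and 4 and 5 in Rec, beside the same shares of all genes. Ust, which sulfates those chains, was lower in clone1 (0.0986 ± 0.0709 CPM) than in Fh1_fl_fl (6.18 ± 1.2 CPM, edgeR adjusted p = 1.05e-14), and Chst11, which sulfates chondroitin, was higher there (29.2 ± 4.89 CPM, against 2 ± 0.579 CPM, 1.05e-17). B3galt6, which adds a galactose to the linker of the chains, was lower in clone1 (1.57 ± 0.397 CPM) than in Fh1_fl_fl (7.47 ± 0.302 CPM, edgeR adjusted p = 3.71e-12).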

How the data were processed

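The authors deposited read counts per Ensembl gene, not normalized, with 1 file per library. The submitters' processing notes name GRCm38, DESeq 1.10.1, HTSeq 0.5.3p9 and TopHat2 2.0.4. The strand setting and annotation release are not given in these sources. Summary lines for reads in no gene (3.278 to 6.733% of a library in no annotated feature, 28.83 to 40.29% not uniquely aligned) were left out. Symbols, coordinates and exon lengths came from GENCODE M21.

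The counts of 4 groups of 5 libraries, grouped by sample title, were fitted in edgeR 4.0.16 (R 4.3.3): filterByExpr (12671 genes kept, 26508 excluded), TMM scaling, and 1 quasi-likelihood model over all 20 libraries without a replicate term. The common biological coefficient of variation was 9.02%. The 6 comparisons were tested with Benjamini-Hochberg adjustment over all genes tested. DESeq2 1.42.0, limma-voom (limma 3.58.1) and other scalings, filters and sample sets were tried as alternatives. The pipeline was tested on simulated data. Members and lists were chosen with earlier results of these data known. Named list genes are up to 3 per list with the largest log2 fold change among those over 2-fold in either clone. Promoters came from RefSeq.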

Additional observations from a re-analysis of the deposited data

Results flagged for a closer look

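Libraries far from the others of their group were looked for in 40 sets, the 10 genes in each of the 4 groups, by comparing the gap of the highest or lowest library with the range of its group. Chance alone marks about 1 set in 20. Of the 3 sets marked, Spp1 in Rec was the one with ample counts: replicate 5 stood at 96.2 CPM, below the other 4 at 105 to 109 CPM. The other marks rest on single counts. Tgfbi in clone19 was 0.166 CPM in replicate 1 and 0 in the other 4, and Thbs2 in Fh1_fl_fl was 0.0811 CPM in replicate 3 and 0 in the other 4.

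For 5 genes, the effect against Fh1_fl_fl differed between the clones by the test of clone19 against clone1, in which the shared Fh1_fl_fl libraries cancel. The difference on the log2 scale, clone19 minus clone1, was 2.83 for Dcn (edgeR adjusted p = 9.27e-12), 1.23 for Fn1 (6.11e-08), 0.51 for Bgn (0.0342), -0.57 for Spp1 (5.19e-07) and -0.73 for Sparc (5.77e-10). For Dcn, Bgn and Spp1 both clones lay on the same side of Fh1_fl_fl and differed in size. Fn1 passed the test against Fh1_fl_fl in clone19 and Sparc in clone1.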

How the results depend on the processing

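The count of members called in the 6 comparisons stayed within 1.5 times its reported value in all 132 alternatives, ranging from 6 to 8 (7 reported) for clone1 and 7 to 8 (7) for clone19 against Fh1_fl_fl, 6 to 6 (6) for Rec against Fh1_fl_fl, 5 to 7 (6) for Rec against clone1, 8 to 9 (8) for Rec against clone19 and 4 to 6 (5) for clone19 against clone1. Of 1180 alternative fold changes of single members, 1156 kept direction and call, 10 lost the call (all Bgn in clone19 against clone1), 14 gained it and none that was called changed sign. A member that did not pass the filter in an alternative had no fold change there and is not in these counts. Dcn was such a member when only the libraries of clone1 and Fh1_fl_fl were fitted, where 6 members were called. Members over 2-fold moved by more than 1.5 times in clone1 against Fh1_fl_fl (6, and 3 with DESeq2 and with limma-voom) and in clone19 against clone1 (1, and 2 with no filter, with the length trend or the length and GC trends removed, both chosen after the data were seen, and without clone1 replicate 5); the cause was not tested. Leaving out clone19 replicate 3 added Tnc in clone19 against clone1 (-0.61, edgeR adjusted p = 0.0371). Scaling by library totals put the median log2 fold change of all genes against Fh1_fl_fl at -0.17 in clone1, -0.12 in clone19 and -0.17 in Rec, beside -0.03, 0 and -0.03 as reported, and the share of higher calls in Rec to 36.5%, beside 47.2% as reported. No clear pairing of libraries by replicate number was found: same-number correlations of deviations exceeded 0.1 in 0 to 2 of 5 pairs. The labels do not say what the numbers stand for. With the replicate block, 4 members in place of 5 were called in clone19 against clone1 (Bgn 0.51, edgeR adjusted p = 0.0551), and the number of members called was otherwise unchanged.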

Other observations

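Among the nearest tested protein-coding genes on each side of the members, each change named here passed edgeR's test at an adjusted p under 0.05. The genes named are a selection made without a rule. Of all tested genes, 78.6% were called in clone1, 72.9% in clone19 and 70.8% in Rec against Fh1_fl_fl. Atic, 5.89 kb from Fn1, was higher in clone1, clone19 and Rec (322, 255 and 301 CPM) than in Fh1_fl_fl (160 CPM), whereas Fn1 was higher in clone19. Mreg, 506 kb from Fn1 on the other side, was highest in clone19, as Fn1 was. It stood at 7.4 CPM there, against 2.79 in clone1, 1.51 in Rec and 1.09 in Fh1_fl_fl. Fat2, 57.9 kb from Sparc, stood at 25.4, 27.8 and 25.1 CPM in clone1, clone19 and Rec, against 4.75 CPM in Fh1_fl_fl, and was higher in clone19 too (log2 fold change 2.56, edgeR adjusted p = 1.04e-13), where Sparc was not. Pkd2, the polycystin-2 gene 18.4 kb from Spp1, was lower in clone1, clone19 and Rec (49.5, 41 and 76.3 CPM) than in Fh1_fl_fl (119 CPM). Smad5, 63.4 kb from Tgfbi, was lower in the same 3 groups (44.2, 45.8 and 65.5 CPM, against 92 CPM), a smaller difference than that of Tgfbi. Fbxl21, 71.6 kb from Tgfbi on the other side, went the other way in the clones. It was higher in clone1 and clone19 (5.94 and 2.96 CPM) and lower in Rec (0.691 CPM) than in Fh1_fl_fl (1.48 CPM). Pappa, a metalloproteinase gene 1077 kb from Tnc, was lower in clone1 and Rec (0.224 and 0.239 CPM) and higher in clone19 (3.45 CPM) than in Fh1_fl_fl (1.35 CPM).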
